A study of Mus musculus with 3 samples.

Results

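The genes of the secretory pathway and of vesicle traffic were compared between mouse liver and Universal Mouse Reference RNA, called UMRR below, a purchased RNA mixture that serves as a common reference. Members were all probes annotated to a single gene whose symbol names a signal recognition particle, Sec, Ssr, signal peptidase (Spcs), p24 (Tmed), coatomer, adaptor protein, Vps, sorting nexin, syntaxin, VAMP, SNAP, golgin or TRAPP protein. The rule takes genes by name and uses no measured value, but it was set with earlier results of these data known. It gave 194 probes of 113 genes, out of 7984 genes with 1 symbol on the array. A ratio was measured on all 3 arrays for 131 of these probes, which covered 87 genes, and the other 26 genes did not enter the main test.

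The study hybridised purchased liver total RNA, labelled with Cy5, against purchased UMRR, labelled with Cy3, on 3 arrays with no dye swap. Both RNAs went through 1 round of amplification to cRNA. Each RNA came from 1 catalogue item, with no strain, age, sex or number of animals in the labels, so the arrays repeat 1 pair of RNAs. The p-values below therefore cover only variation from array to array, which may be technical, and say nothing of variation among animals.

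Proteins bound for the cell surface, the lysosome or the blood enter the endoplasmic reticulum (ER) as they are made. The signal recognition particle brings the ribosome to the Sec61 channel, and signal peptidase removes the signal sequence. COPII coats carry cargo from the ER to the Golgi and COPI coats carry it back. Clathrin adaptors, sorting nexins and Vps complexes then sort cargo between the Golgi, endosomes and lysosomes, and SNARE proteins fuse the vesicles with their targets. Hepatocytes use this route to release plasma proteins and lipoproteins, and pancreatic acinar cells use it to release digestive enzymes.

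The values are log ratios with exact zeros read as no ratio. Base 2 was assumed, and read as natural logs every value would be larger by a factor of 1.44. Positive values were read as higher in liver because the 4 measured genes of a hepatocyte list (Apoc3, Ambp, Rbp4 and Vtn) lay between 4.01 and 5.17, so these genes are no finding. Genes of pancreatic acinar cells were as high: 14 of 15 measured genes were higher in liver, with medians of 4.08, 4.54 and 4.48 on arrays 1, 2 and 3, a range over genes of 0.22 to 5.55, and none at 0 on all arrays. Of 5 erythroid genes 3 were higher and 0 lower (0.22 to 4.94, Hba-a1 the highest), the 1 measured Kupffer cell gene, Slc40a1, read 4.13, 3.91 and 3.95, and all 3 islet genes were higher (0.74 to 0.87). Fibroblast, plasma and B cell, and neuron lists each had 1 gene higher and 2 lower. What these cell types add to the members' values was not tested. Exact zeros made up between 23.5% and 32.2% of an array. Array 1 stood apart: over genes, its differences from arrays 2 and 3 had SDs of 0.43 and 0.38, while arrays 2 and 3 differed from each other with an SD of 0.21. Dye bias is part of every ratio, and a lower share of a cell type cannot be told apart from less RNA per cell.

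To show what stands upstream of some called members, the 250 bases before the annotated start are given for 4 genes. They run 5′ to 3′ on the gene's strand and come from RefSeq (GRCm38.p6). Capitals mark matches to the searched motifs. These genes were chosen after their values and matches were seen.
Tmed6: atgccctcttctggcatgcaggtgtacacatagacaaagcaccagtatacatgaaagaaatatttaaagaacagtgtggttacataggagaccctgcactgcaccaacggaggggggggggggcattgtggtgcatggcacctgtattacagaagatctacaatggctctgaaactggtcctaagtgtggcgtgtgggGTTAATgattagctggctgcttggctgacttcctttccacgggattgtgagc
Sec24d: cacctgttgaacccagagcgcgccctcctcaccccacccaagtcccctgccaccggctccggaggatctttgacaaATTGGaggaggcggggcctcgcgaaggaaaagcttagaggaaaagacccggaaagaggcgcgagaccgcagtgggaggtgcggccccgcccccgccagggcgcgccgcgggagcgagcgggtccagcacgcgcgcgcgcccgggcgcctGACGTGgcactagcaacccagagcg
Vps16: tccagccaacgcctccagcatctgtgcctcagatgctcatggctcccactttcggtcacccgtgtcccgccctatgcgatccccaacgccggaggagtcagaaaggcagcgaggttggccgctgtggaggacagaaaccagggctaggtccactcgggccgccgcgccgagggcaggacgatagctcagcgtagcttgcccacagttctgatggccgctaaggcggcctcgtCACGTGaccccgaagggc
Snx5: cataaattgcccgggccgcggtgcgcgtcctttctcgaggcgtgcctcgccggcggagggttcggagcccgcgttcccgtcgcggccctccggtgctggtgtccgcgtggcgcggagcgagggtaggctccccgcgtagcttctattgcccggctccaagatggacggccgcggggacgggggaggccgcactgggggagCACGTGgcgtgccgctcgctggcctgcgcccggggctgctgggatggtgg
The Tmed6 window, chr8:107065645-107065894 on the minus strand, holds GTTAAT, part of the site bound by the liver and pancreas factor HNF1, with its first base at -52. The Sec24d window, chr3:123267246-123267495 on the plus strand, holds GACGTG, the core of sites bound by ATF6 and XBP1 in the ER stress response, at -25, and a CCAAT box on the other strand at -174. In Vps16, chr2:130424070-130424319 on the plus strand, the E-box CACGTG, bound by several basic helix-loop-helix factors, starts at -18. Snx5, chr2:144270573-144270822 on the minus strand, holds the same E-box at -50.

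Promoter windows were found for 86 of the 113 genes (96 windows), and each motif was searched on both strands. CACGTG was held by 14 member windows (14.6%), against 7.92% of 5569 windows of the genes tested on the array and 6.02% of all 32851 windows. GACGTG was held by 11 (11.5%), against 7.58% and 5.20%. CCAAT was held by 33 (34.4%), against 34.7% and 33.8%, and GTTAAT by 5 (5.21%), against 4.90% and 6.43%. The palindrome TGACGTCA was held by 0 member windows, against 2.60% and 1.55%. Members called higher in liver had 22 windows and those called lower 23. CACGTG stood in 3 of the former and 5 of the latter, GACGTG in 1 (Sec24d) and 5, CCAAT in 7 and 8, and GTTAAT in 1 (Tmed6) and 1 (Ap4e1). Among members called higher, GACGTG thus stood only in the Sec24d window and GTTAAT only in the Tmed6 window. The CCAAT box, which the Sec24d window also holds, stood in 7. These are matches of letters and not shown to be bound.

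Of the 87 measured genes, 54 differed from a ratio of 1 by limma, with p-values adjusted (Benjamini-Hochberg, threshold 0.05) over all 5520 genes, 25 higher in liver and 29 lower. That was 62.1% of the members, near the 64.0% of all genes, of which 30.1% were higher and 33.9% lower. The median log2 ratio was -0.030, beside -0.028 for all genes, and 43 members had a mean above 0. Members spread less than all genes, with an SD over genes of 0.76 against 1.09. Their extremes were -1.65 and 1.99, beside -4.27 and 6.14 for all genes. Extremes of 87 and of 5520 genes cannot be compared, because a range widens with the number of genes. A difference of at least 2-fold with 1 sign on every array was found for 10 members, 4 higher and 6 lower (11.5%), against 19.0% of all genes, of which 9.46% were higher and 9.53% lower. A mean beyond 1 in size was found for 16 members (18.4%), against 24.9%. The 4 with at least 2-fold on every array were Ap1m2, Tmed6, Vps16 and Snap47, and the 6 were Sec61a2, Snx6, Trappc13, Snx5, Spcs3 and Vps50. Of these 10 genes, only Tmed6 (4 probes) and Snx5 (2 probes) had more than 1 probe measured on all arrays. Among the 87 measured members, 61 rested on 1 such probe, so agreement between probes could not be checked for them.

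These counts depended on which arrays entered. Without array 1, 28 members were higher and 33 lower, against 34.9% and 37.7% of all genes. Without array 2 the counts were 19 and 22, against 24.7% and 28.1%, and without array 3 they were 17 and 22, against 22.8% and 27.1%. Ap4b1, Snap23, Snx15, Tmed5, Trappc8, Vps53, Sec61g, Spcs2, Srp54b, Ssr1, Ssr2 and Vps51 passed neither without array 2 nor without array 3. Golga1 did not pass without array 2, and Sec61a1, Trappc3, Srp14 and Trappc4 did not without array 3. With no moderation of the variance 15 members were higher and 16 lower, against 18.7% and 19.1% of all genes, and Spcs3, Tmed8, Vamp4, Sec24d and Vps37a were among those that did not pass. Snx4, Snx21 and Snx27 did not pass there either. At a threshold of 0.01, 19 were higher and 23 lower, against 23.4% and 26.2%. With zeros kept as ratios of 1, 21 of 100 members were higher and 26 lower, against 20.7% and 22.5%. With probes measured on at least 2 arrays, 28 of 94 were higher and 30 lower, against 27.8% and 31.9%. Tested against a 2-fold difference, 3 were higher (Ap1m2, Tmed6 and Vps16) and 3 lower (Sec61a2, Snx5 and Snx6), against 7.72% and 7.07%.

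**Figure D1:**
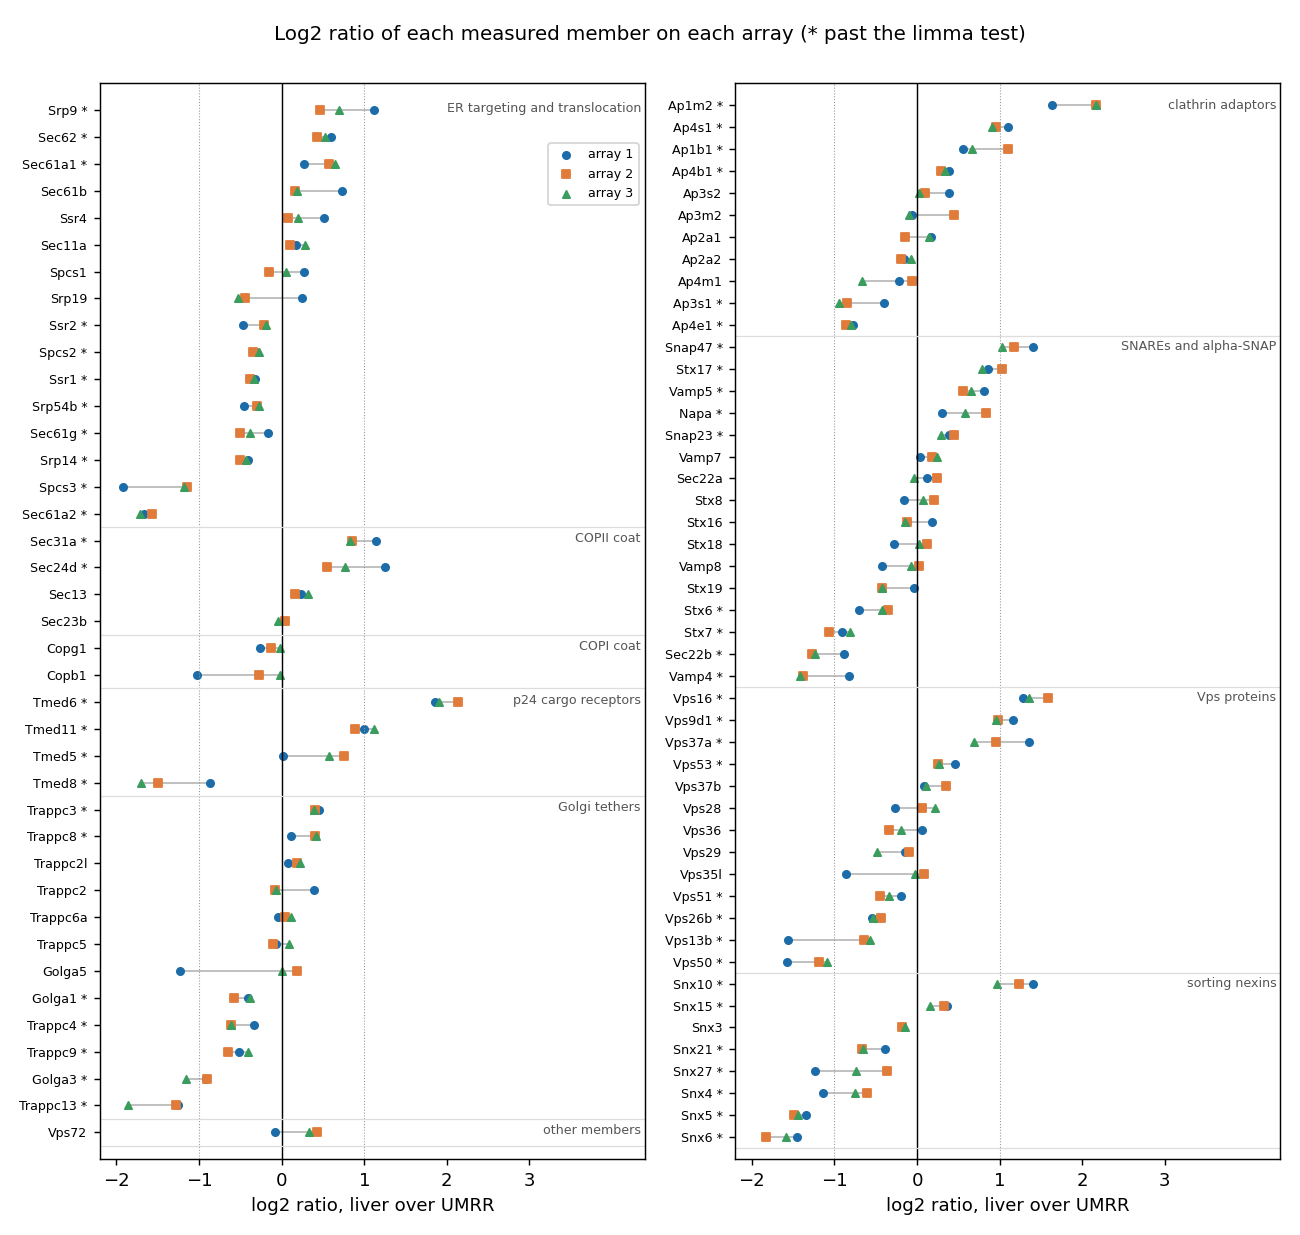
Log2 ratio of liver over UMRR (x axis) for each of the 87 measured genes on arrays 1, 2 and 3, ordered by mean within each role; grey lines join a gene's lowest and highest array, dotted lines mark 2-fold and asterisks the genes past the limma test. Tmed6 and Ap1m2 lie farthest to the liver side and Sec61a2 and Snx6 farthest to the UMRR side.

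Of 16 measured genes that bring proteins into the ER, 8 were lower in liver, 3 were higher and 5 did not pass, with a median log2 ratio of -0.27. Of all genes, 33.9% were lower and 30.1% higher. Of the 8 lower genes, 6 lay between -0.44 and -0.29. The 2 genes lower by more than 2-fold on every array were Sec61a2 and Spcs3. The excess of lower genes was lost in 3 settings. The counts higher and lower were 3 and 3 without array 2, against 24.7% and 28.1% of all genes. They were 2 and 2 without array 3, against 22.8% and 27.1%. At a threshold of 0.01 they were 3 and 3, against 23.4% and 26.2%. The 3 lower without array 2 were Sec61a2, Spcs3 and Srp14.

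The Sec61 channel gave opposite values for its paralogous pores. Sec61a2 stood at -1.66, -1.57 and -1.71 on arrays 1, 2 and 3, or -1.65 ± 0.070 (SD, n = 3), which is 3.14-fold lower in liver (adjusted p = 2.35e-05, limma). Sec61a1, the major form of the pore subunit, stood at 0.27, 0.57 and 0.65, with a mean of 0.50 ± 0.20 (adjusted p = 0.00848, limma), and did not pass without array 3 (adjusted p = 0.0840). Every array thus placed Sec61a1 above 0 and Sec61a2 below it. Of the small subunits, Sec61g was lower (-0.35 ± 0.17) and Sec61b did not pass (0.36 ± 0.32). Sec62, a partner of the channel, was higher at 0.52 ± 0.085.

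In signal peptidase, Spcs3 read -1.93, -1.14 and -1.19 on arrays 1, 2 and 3 (mean -1.42 ± 0.44, 2.67-fold lower, adjusted p = 0.000561, limma). All its arrays lay below -1, with array 1 the lowest. Spcs2 was lower on average (-0.31 ± 0.036), but its 3 probes read -0.93, -0.019 and 0.0084, so 1 probe carries the call. Spcs1 (0.055 ± 0.21) and the catalytic subunit Sec11a (0.18 ± 0.093) did not pass.

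Within the signal recognition particle, Srp9 and Srp14, which form a heterodimer, went opposite ways. Srp9 was higher in liver (0.76 ± 0.33) and Srp14 lower (-0.44 ± 0.049). Their arrays did not overlap (0.46 to 1.12 against -0.50 to -0.41), but each gene rested on 1 probe measured on all arrays. Srp9 did not pass with zeros kept as ratios of 1 (adjusted p = 0.0945, limma) or with no moderation of the variance. Srp14 did not pass without array 3 (adjusted p = 0.0588, limma). Srp54b, a form of the subunit that binds the signal sequence, was lower (-0.35 ± 0.096), and whether its probe also reads its paralog Srp54a was not tested. Srp19 did not pass (-0.24 ± 0.42): array 1 stood at 0.24 and arrays 2 and 3 at -0.44 and -0.52. Of the translocon-associated proteins, which assist the channel, Ssr1 (-0.35 ± 0.030) and Ssr2 (-0.29 ± 0.15) were lower and Ssr4 did not pass (0.26 ± 0.22).

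Of 4 measured genes of the COPII coat, 2 were higher in liver and 0 lower, against 30.1% and 33.9% of all genes. The median of the 4 was 0.55. Sec31a, of the outer cage, read 1.14, 0.85 and 0.82 on arrays 1, 2 and 3 (0.94 ± 0.18, 1.91-fold, adjusted p = 0.000438, limma). Sec24d, of the inner layer that binds cargo, read 1.25, 0.55 and 0.76 (0.85 ± 0.36, 1.81-fold, adjusted p = 0.00290, limma). Array 1 was the highest for both. The partner of Sec31a in the cage, Sec13 (0.24 ± 0.074), and the partner of Sec24 proteins, Sec23b (0.0081 ± 0.051), did not pass. Neither of the 2 measured COPI genes passed (Copb1, -0.44 ± 0.52, and Copg1, -0.14 ± 0.12), and Copb1 did without array 3 (adjusted p = 0.0313, limma). The probes of Copg1 had opposite signs, at -0.54 and 0.27.

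The p24 proteins, which cycle between ER and Golgi as cargo receptors, held one of the highest members. Tmed6 read 1.86, 2.14 and 1.91 on arrays 1, 2 and 3, a mean of 1.97 ± 0.15 (SD, n = 3) or 3.91-fold higher in liver (adjusted p = 1.80e-05, limma). Its 4 probes of 4 accessions had means of 1.43, 2.09, 2.17 and 2.18, all on the liver side. Tmed11 stood at 0.99, 0.89 and 1.12 (1.00 ± 0.12, 2.00-fold). Tmed5 passed at 0.44 ± 0.39 but read 0.011 on array 1, and did not pass without array 2 (adjusted p = 0.215) or array 3 (adjusted p = 0.166). Tmed8, placed in this group by its symbol alone, was lower at -0.87, -1.50 and -1.71 (-1.36 ± 0.44, 2.56-fold lower). Whether it acts as a cargo receptor was not tested. All 4 measured genes with a Tmed symbol passed, 3 higher and 1 lower. Among all genes 64.0% passed, 30.1% higher and 33.9% lower. Genes of the hepatocyte, acinar, erythroid, islet and Kupffer cell lists moved the same way as Tmed6 and Tmed11. The part of any cell type in these values was not tested.

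Golgi tethers are the long golgins and the TRAPP complexes, which catch vesicles before fusion. Among 12 genes, 5 were lower and 2 higher, against 33.9% and 30.1% of all genes. The other 5 did not pass, and the median of the 12 was -0.19. Trappc13 read -1.25, -1.28 and -1.86 on arrays 1, 2 and 3 (-1.46 ± 0.35, 2.76-fold lower, adjusted p = 0.000242, limma). Its other probes gave no such value: one had ratios of 0.20 and 0.13 on arrays 2 and 3 and another none, so Trappc13 rests on 1 probe. With probes on at least 2 arrays it stood at -0.88, and with zeros kept at -0.68, and it passed in both. Golga3 was lower at -0.99 ± 0.14 and Golga1 at -0.45 ± 0.10. Golga5, known as golgin-84, did not pass (-0.34 ± 0.77), with -1.23 on array 1 and 0.19 and 0.0045 on arrays 2 and 3.

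The remaining TRAPP genes stayed within 0.53 of 0. Trappc9 (-0.53 ± 0.12) and Trappc4 (-0.52 ± 0.16) were lower. A second probe of Trappc9 had ratios of 0.055 and -0.47 on arrays 2 and 3 only. Trappc3 (0.42 ± 0.028) and Trappc8 (0.31 ± 0.17) were higher, and neither passed without array 3. Trappc2l (0.16), Trappc2 (0.079), Trappc6a (0.037) and Trappc5 (-0.030) did not pass.

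Among the adaptors that choose cargo for coated vesicles, 4 of 11 genes were higher and 2 lower, against 30.1% and 33.9% of all genes. The other 5 did not pass, and the median of the 11 was 0.095. The highest of all members was Ap1m2, which encodes the mu1B subunit of the epithelial form of AP-1 that sorts proteins to the basolateral surface. It read 1.64, 2.17 and 2.16 on arrays 1, 2 and 3 (1.99 ± 0.31, 3.97-fold, adjusted p = 5.00e-05, limma). A second probe for it was at 0 on all arrays. Ap1b1, the large beta subunit of AP-1, was higher at 0.77 ± 0.29. The mu1B subunit is known for its absence from hepatocytes. On the same arrays, 4 of 4 hepatocyte, 14 of 15 acinar, 3 of 5 erythroid and 3 of 3 islet genes were higher in liver. So was the 1 measured Kupffer cell gene. The fibroblast, plasma and B cell, and neuron lists each had 1 gene higher and 2 lower. The part of any cell type in this value was not tested.

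Subunits of AP-4, an adaptor of the trans-Golgi network, differed in direction within the complex. Ap4s1, the small subunit, was higher at 1.10, 0.95 and 0.91 (0.99 ± 0.099), and so was Ap4b1 (0.34 ± 0.050). Ap4e1, a large subunit, was lower at -0.78, -0.86 and -0.81 (-0.82 ± 0.043). The arrays of Ap4s1 and Ap4e1 lay far apart, by more than their spread. Ap4m1 did not pass (-0.31 ± 0.31). In AP-3, Ap3s1 was lower (-0.73 ± 0.29), while Ap3s2 (0.17 ± 0.19) and Ap3m2 (0.095 ± 0.31) did not pass. Neither alpha subunit of the endocytic AP-2 passed (Ap2a1, 0.054 ± 0.18, and Ap2a2, -0.14 ± 0.061). The probes of Ap2a2 had opposite signs, at -0.53 and 0.25.

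**Figure D2:**
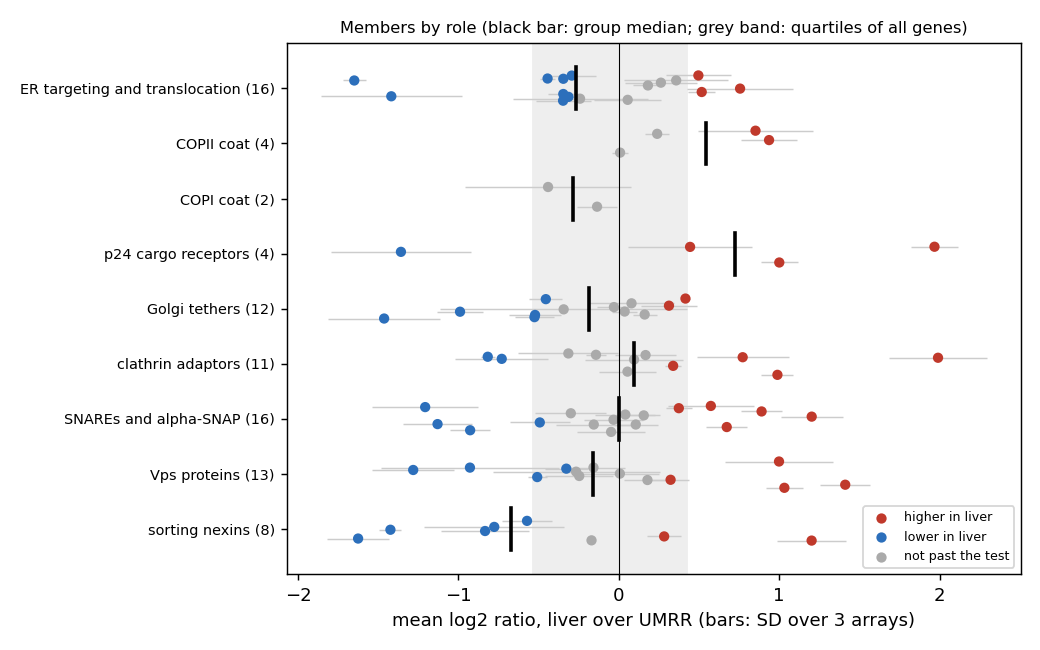
Mean log2 ratio of liver over UMRR (x axis; bars are SD over 3 arrays) for the members of 9 roles, coloured by call; black bars are medians and the grey band spans the quartiles of all genes, from -0.54 to 0.42. Roles were set by gene symbol. The sorting nexins have the lowest median (-0.67) and the p24 (Tmed) group the highest (0.72). Every role but the coats holds genes called in both directions.

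SNARE genes and the gene of alpha-SNAP, which recycles SNAREs after fusion, were split. Among 16 genes, 5 were higher and 4 lower, against 30.1% and 33.9% of all genes, and 7 did not pass. The median of the 16 was 0.0040. Snap47, a SNAP-25 relative, read 1.41, 1.18 and 1.02 on arrays 1, 2 and 3 (1.20 ± 0.19, 2.30-fold, adjusted p = 0.000170, limma). Its widely used relative Snap23 was higher by less, at 0.37 ± 0.080. Stx17, the syntaxin of autophagosomes, stood at 0.86, 1.03 and 0.78 (0.89 ± 0.13). Vamp5 (0.67 ± 0.13) and Napa, which encodes alpha-SNAP (0.57 ± 0.27), were higher too.

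The 4 SNAREs lower in liver were Vamp4, Sec22b, Stx7 and Stx6. Vamp4, of the trans-Golgi network, read -0.83, -1.38 and -1.41 (-1.21 ± 0.33, 2.31-fold lower, adjusted p = 0.000492, limma), and both of its probes were below -1. Stx7, of late endosomes, read -0.91, -1.06 and -0.81 (-0.93 ± 0.13). Stx6 was lower at -0.49 ± 0.19, with probes at -1.09 and 0.11. Sec22b, which acts between ER and Golgi, was lower at -1.13 ± 0.22, from 1 probe at -2.08 and another at -0.18, so the size of its difference is uncertain. Its relative Sec22a did not pass (0.11 ± 0.14).

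Stx19 (-0.30), Stx18 (-0.048), Stx16 (-0.033), Stx8 (0.041) and Vamp7 (0.16) did not pass. Vamp8, a SNARE of late endosomes and of the zymogen granules of acinar cells, had a mean of -0.16 ± 0.23 that hides a split between its probes. One accession stood on several spots, and the 3 spots measured on all arrays read -1.10, -1.26 and -1.37. Probes of 2 other accessions read 1.21 ± 0.76 and 1.73 ± 0.41. Averaged by accession first, a setting chosen after seeing the data, Vamp8 was higher at 0.57 (adjusted p = 0.0161, limma). With the median probe it was lower at -1.10 (adjusted p = 9.37e-05, limma), so no direction is given for it.

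**Figure D3:**
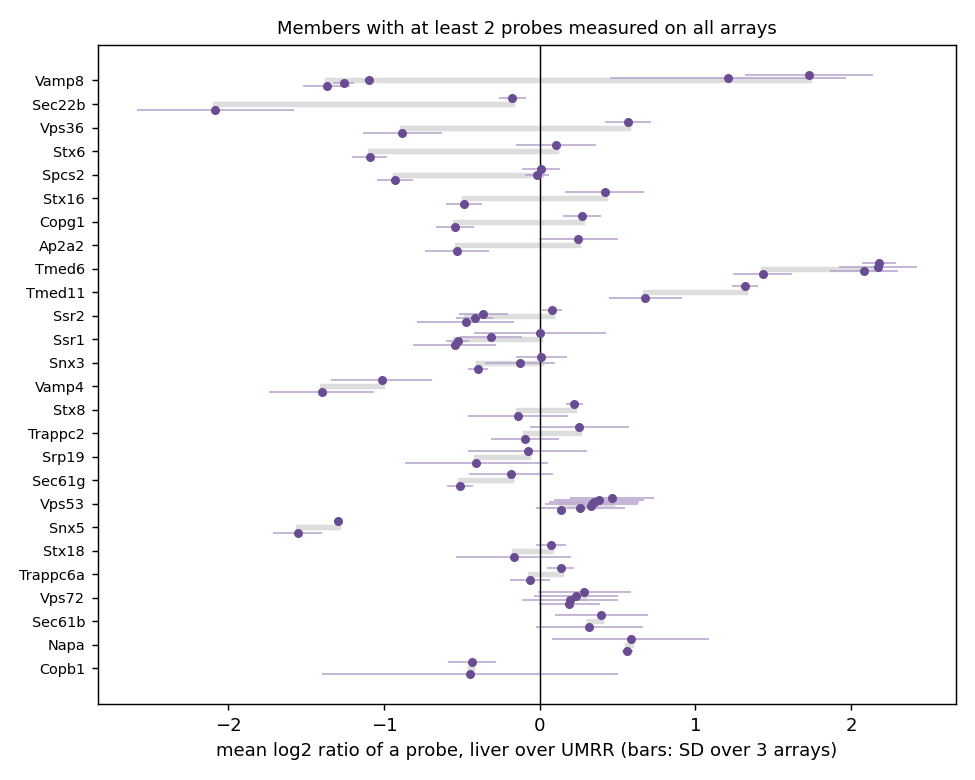
Mean log2 ratio (x axis; bars are SD over 3 arrays) of each probe of the 26 members with at least 2 probes measured on all arrays, ordered by the gap between the lowest and highest probe. Vamp8 has probes from -1.37 to 1.73, while the 7 probes of Vps53 stay between 0.14 and 0.46.

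The gap between the lowest and highest probe exceeded 1 for 4 of 26 genes (15.4%), against 15.9% of 1328 genes on the array, and its median was 0.40 against 0.34. Besides Vamp8 these were Sec22b, Vps36 and Stx6. In Stx16 the 2 spots carried the same accession and read 0.42 and -0.48.

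The Vps genes form several complexes that work on endosomes and lysosomes. Of 13 measured genes, 4 were higher and 4 lower, against 30.1% and 33.9% of all genes. The other 5 did not pass, and the median of the 13 was -0.16. Vps16, a core subunit of the HOPS and CORVET tethers of lysosomes and endosomes, read 1.29, 1.59 and 1.36 on arrays 1, 2 and 3 (1.41 ± 0.15, 2.66-fold, adjusted p = 6.77e-05, limma). Vps9d1, with a domain found in activators of Rab GTPases, read 1.16, 0.98 and 0.95 (1.03 ± 0.11). All arrays of both lay on the liver side. Vps37a, of the ESCRT-I complex that sorts cargo for the lysosome, read 1.35, 0.96 and 0.69 (1.00 ± 0.34).

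The other ESCRT genes did not pass: Vps37b stood at 0.18 ± 0.15, Vps28 at 0.0067 ± 0.25 and Vps36 at -0.16 ± 0.20, the last with probes at 0.57 and -0.88. Vps51 and Vps53 encode subunits shared by the GARP and EARP tethers, which receive vesicles from endosomes, and Vps50 the subunit of EARP alone. Vps50 read -1.57, -1.18 and -1.09 (-1.28 ± 0.26, 2.43-fold lower, adjusted p = 0.000210, limma). Vps51 was lower (-0.33 ± 0.13) and Vps53 higher (0.32 ± 0.12), and neither passed without array 2 or array 3. The 7 measured probes of Vps53 were all on the liver side.

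Vps26b, of the retromer that returns receptors to the Golgi, was lower (-0.51 ± 0.060), while Vps29, also of retromer, did not pass (-0.25 ± 0.21). Vps35l, of the related retriever, did not pass either (-0.27 ± 0.52). Vps13b, a lipid transfer protein, was lower at -0.93 ± 0.55, with -1.56 on array 1 and -0.65 and -0.57 on arrays 2 and 3. The rule also took Vps72, named for a yeast sorting gene but known as a subunit of chromatin remodelling complexes, which did not pass (0.23 ± 0.27).

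Sorting nexins, which bind endosomal membranes and shape the tubules that carry receptors away, had the lowest median of the 9 roles, -0.67. Of 8 genes, 5 were lower and 2 higher, against 33.9% and 30.1% of all genes, and 1 did not pass. With probes measured on at least 2 arrays, Snx2 also passed as higher and Snx17 as lower. The 5 lower genes passed also without each array in turn, but Snx4, Snx21 and Snx27 did not pass with no moderation of the variance, which left 3 lower with Snx3 added. Snx6 read -1.45, -1.83 and -1.59 on arrays 1, 2 and 3 (-1.62 ± 0.19, 3.08-fold lower, adjusted p = 4.93e-05, limma). Its close relative Snx5, which like Snx6 pairs with other nexins on retromer tubules, read -1.35, -1.48 and -1.44 (-1.42 ± 0.069, 2.68-fold lower, adjusted p = 4.08e-05, limma). Both probes of Snx5 were low, at -1.55 and -1.29.

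Snx4 (-0.83 ± 0.28), Snx27, which links retromer to receptor tails (-0.78 ± 0.44), and Snx21 (-0.57 ± 0.16) were lower too. Snx27 spread most, from -1.23 on array 1 to -0.36 on array 2. Snx3 did not pass (-0.17 ± 0.021), and its 3 probes read -0.40, -0.12 and 0.011. Snx10, known for its need in osteoclasts, was higher at 1.40, 1.23 and 0.97 (1.20 ± 0.21, 2.30-fold, adjusted p = 0.000197, limma). Snx15 was higher at 0.28 ± 0.11 and did not pass without array 2 or array 3.

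A list of 117 other genes of the pathway, outside the name rule, was set beside the members. Of these, 64 were on the array, and of the 44 measured on all arrays, 11 were higher in liver and 12 lower (52.3% called, against 64.0% of all genes), with a median of -0.079. Dropping array 2 left 7 genes of this list called higher and 11 called lower, beside 24.7% and 28.1% of all genes. Dropping array 3 also left 7 and 11, beside 22.8% and 27.1%. Dropping array 1 gave 15 and 16, beside 34.9% and 37.7%. Sar1b, the GTPase that starts COPII coats and is needed for export of large lipoproteins, read 2.80, 2.53 and 2.46 on arrays 1, 2 and 3 (2.60 ± 0.18, 6.06-fold, adjusted p = 7.78e-06, limma). Its paralog Sar1a did not pass (-0.10 ± 0.023), and no array of one overlapped the other. With zeros kept as ratios of 1, Sar1b fell to 1.36 (adjusted p = 0.0350, limma). Preb, the exchange factor that loads Sar1 with GTP, was higher at 0.72 ± 0.27.

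The next highest were Tgoln1, a resident of the trans-Golgi network (1.49, 2.18 and 1.99; 1.89 ± 0.36), and Tram1, which assists chains into the ER (1.00, 1.40 and 1.56; 1.32 ± 0.29). M6pr, the small receptor that delivers hydrolases to lysosomes, was the lowest at -1.06, -1.25 and -1.25 (-1.19 ± 0.11, 2.28-fold lower). With zeros kept, M6pr did not pass (-0.59, adjusted p = 0.0537, limma). Exoc2 (-0.96 ± 0.24) and Exoc4 (-0.84 ± 0.15), subunits of the exocyst that tethers vesicles to the plasma membrane, were also lower. The heavy chain of clathrin, Cltc, stood at -0.57 ± 0.14.

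**Figure D4:**
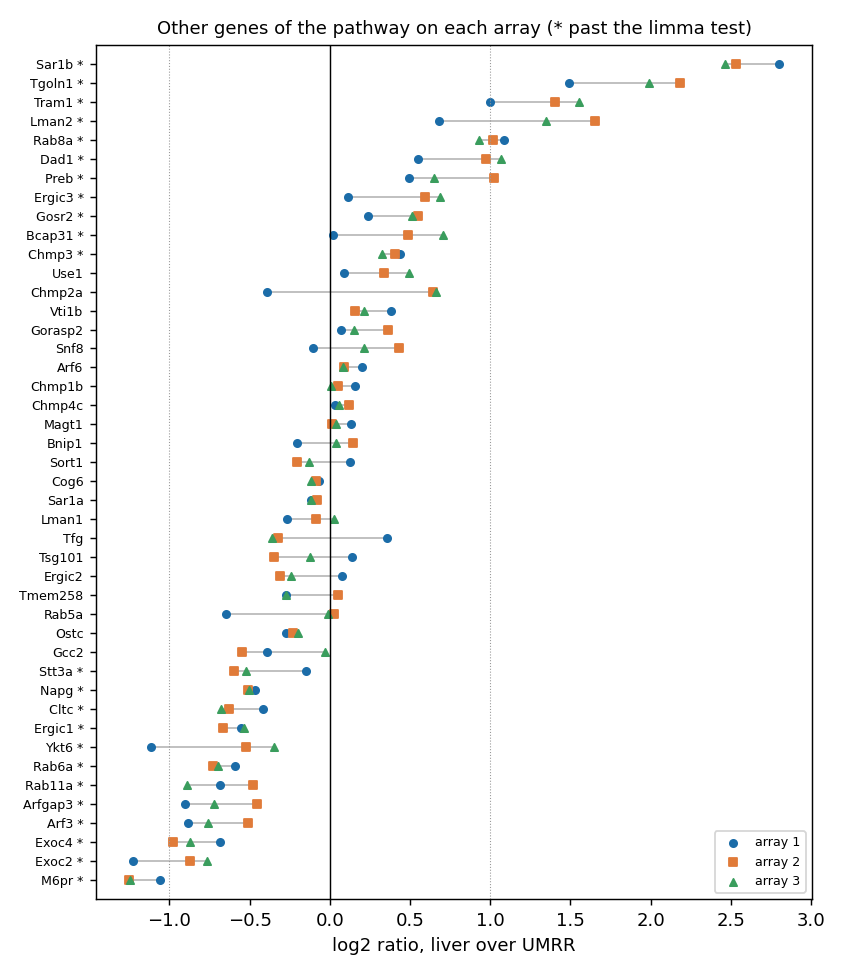
Log2 ratio of liver over UMRR (x axis) on arrays 1, 2 and 3 for the 44 measured genes of the wider pathway list, ordered by mean; asterisks mark genes past the limma test and dotted lines 2-fold. Sar1b lies between 2.46 and 2.80, apart from its paralog Sar1a near 0.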

How the data were processed

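The deposited table holds 1 signed log ratio per probe and array, as processed by the authors, and the deposited values are read here as log2. Scanning, spot correction, dye normalization and log base: not given in the sources used here. The base of 2 is an assumption, and exact zeros were read as no ratio. Depth has no meaning here, and the number of arrays limits the precision.

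Of 16273 probes, 12336 had 1 symbol in the platform annotation; all 113 member genes matched the RefSeq gene table (GRCm38.p6) by identifier and 0 symbols changed. Probes measured on all 3 arrays were averaged per gene (5520 genes), and an intercept was tested two-sided in R 4.3.3 by limma 3.58.1 (lmFit, eBayes), Benjamini-Hochberg adjusted over all genes at 0.05. The fit was also run on simulated data with few changed genes, independent errors and no dye bias. That run does not show how reliable the calls in these data are.

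The members, role lists, wider list, markers and tests were chosen with earlier results of these data known. The rule for named genes took members past the test with a mean of at least 1, the ends of each role, families called both ways, and the 3 highest and 3 lowest of the wider list; other measured members are named for completeness, and 3 further genes of the wider list (Sar1a, Preb, Cltc) were named after their values were seen. The protein comparison planned for paralogs was not run. The alternatives changed centring, scaling, zeros, probe averaging, variance moderation, thresholds and arrays.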

Additional observations from a re-analysis of the deposited data

How the results depend on the processing

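The count of all genes called was 3535 of 5520. Without moderation of the variance 2087 passed, with 15 members higher and 16 lower, and against a 2-fold difference 816 genes passed, with 3 members higher and 3 lower. With each array left out in turn, 2755 to 4004 genes passed, with 17 to 28 members higher and 22 to 33 lower, and the median of the members lay between -0.083 (without array 3) and -0.0034 (without array 1), beside -0.030 with all arrays. Under centring, scaling, block medians, trend with robust settings, the median probe, zeros kept as ratios of 1, probes on at least 2 arrays, removal of genes of high SD and a threshold of 0.01, the counts of all genes and of members stayed within 1.5 times. Kept zeros ended the calls of Snx15, Srp9, Trappc8, Vps53, Sec61g, Ssr2 and Vps51, and calls in the wider list, M6pr among them. They moved Sar1b, Exoc2, Trappc13 and Trappc9, among others, by over 1.5 times (to 1.36, -0.55, -0.68 and -0.33). Vamp8 changed direction with 1 value per accession (0.57, a setting chosen after seeing the data). No paired analysis was possible because the arrays form 1 group.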

Other observations

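Of the 113 genes, 26 had no probe with a ratio on all arrays and are given here by their values. For 7 of them a probe had ratios on 2 arrays. Copz1, a small coatomer subunit, read 0.81 and 0.68 on arrays 2 and 3, and Snx2, a partner of Snx5 and Snx6 on retromer tubules, read 0.77 and 0.73 there. Snx17, which recycles receptors of the LDL receptor family, read -0.79 and -0.94, and Sec14l1, a lipid-binding protein, read -0.85 and -1.14. Sec63, a partner of the Sec61 channel, read 0.51 and 0.43 on arrays 1 and 2. Snap29 (0.11 and 0.49) and Srp54a (-0.15 and -0.91) were measured on arrays 1 and 3.

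A further 6 genes had a ratio on array 2 alone. Stx11, a syntaxin of cytotoxic cells, read -2.08 there, and Stx5a, the syntaxin of the early Golgi, 0.45. Snap25, the SNAP of neurons, read -0.032, while Srp68, Ssr3 and Snx9 read -0.24, -0.14 and -0.14. The other 13 were at 0 on every array, among them Ap1g1, Ap1m1, Ap2m1, Ap3b1, Ap3d1, Sec24c, Vps25 and Vps33a. None of the 26 entered the main test. With probes measured on at least 2 arrays, Copz1, Sec63 and Snx2 passed as higher and Sec14l1 and Snx17 as lower by limma.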
